A study of Mus musculus with 26 samples.

Results

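The comparison asked whether T cells in the inflamed central nervous system (CNS) differ from T cells in the draining lymph node (dLN) by the same amount in regulatory (Treg) and in conventional (Tconv) CD4 T cells. It used 13 of the 26 samples of the series, all from control mice and chosen by their labels alone: 3 samples of CNS Treg cells, 3 of dLN Treg cells, 4 of CNS Tconv cells and 3 of dLN Tconv cells. Treg cells were sorted as CD4+Foxp3+ and Tconv cells as CD4+Foxp3-. All 13 came from C57BL/6 mice of the genotype Foxp3Cre-ERT2, in which a tamoxifen-inducible Cre recombinase is made from the Foxp3 locus and no floxed allele is listed. Active experimental autoimmune encephalomyelitis (EAE), which models multiple sclerosis in mice, was induced in all of them, and they received tamoxifen from day 7 to day 14, and were sampled at day 14. There was no group without EAE, Cre or tamoxifen, so none of these can be told apart from the state of the cells. The labels number replicates by mouse and do not say whether samples of different groups came from the same mice, so p-values measure the spread between these samples.

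Treg cells restrain other immune cells and depend on the transcription factor Foxp3 and on interleukin 2 (IL-2), which they bind through a receptor with the chains Il2ra (CD25), Il2rb (CD122) and the common gamma chain. IL-2 signals through the transcription factor STAT5, which switches on feedback inhibitors of the SOCS family. In EAE, myelin-reactive Tconv cells primed in the lymph node enter the CNS together with monocytes and neutrophils, and meet activated microglia there, while Treg cells also enter and limit the disease.

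For each gene the CNS minus dLN difference in Tconv cells was subtracted from that in Treg cells, on the log2 scale. A negative result, called lower here, means that the gene changed less or moved downward in Treg cells relative to Tconv cells. Values per library are given as CPM, in which counts are scaled to a common library total with TMM factors, and positions are on GRCm38, the assembly also called mm10. A gene was called when its adjusted p was under 0.05 in an edgeR quasi-likelihood test with Benjamini-Hochberg adjustment over all 12473 tested genes. This called 274 genes, or 2.2% of those tested. Of these, 216 (1.73%) were higher and 58 (0.465%) were lower. In the simple CNS minus dLN difference 2382 genes (19.1%) were called in Treg cells, 11.6% of all genes higher and 7.46% lower. In Tconv cells 709 (5.68%) were called, 4.14% higher and 1.55% lower. In simulated data of this design, changes were planted in CNS Treg libraries only, in genes averaging at least 10 CPM. Of these, 17% of 2-fold and 73% of 4-fold interactions were recovered, so a gene that was not called may still differ. Recovery of genes below 10 CPM was not measured.

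Total expected counts were 12.4 to 18.5 M per library, with 11089 to 14259 genes above 0. T cell markers were present in every group: Cd3e, a chain of the T cell receptor complex, had 891 to 933 CPM in CNS Treg libraries, 817 to 933 CPM in dLN Treg libraries, 1106 to 1404 CPM in CNS Tconv libraries and 1061 to 1129.6 CPM in dLN Tconv libraries. Foxp3 had 24, 24.1 and 61 CPM in CNS Treg and 48.5, 39.5 and 58.4 CPM in dLN Treg libraries, against at most 1.54 CPM in any Tconv library. Its interaction was -0.22 ± 0.63 (adjusted p = 0.927, edgeR quasi-likelihood test, Benjamini-Hochberg adjusted) and was not called. The deposited files of CNS Tconv replicates 3 and 4 carry the name prefix used elsewhere for knockout files, although their labels say control. Results are therefore given with all 13 libraries and, for some genes and lists, also without these 2. Without them 668 genes were called higher and 288 lower, and the calls included 212 of the 216 and 57 of the 58.

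Transcripts of myeloid cells stood apart from all others. The summed level of 102 monocyte and macrophage genes was 18511, 20559 and 13919 CPM in CNS Treg libraries, against 1445, 2689 and 931 CPM in dLN Treg libraries. In Tconv libraries the same sum was 791, 839, 1223 and 1516 CPM in the CNS, against 783, 1083 and 1220.0 CPM in the dLN. The CNS Treg libraries were thus the high ones, and their range did not overlap with that of any other group. Csf1r, the receptor of the macrophage growth factor CSF1, had 865 to 1271 CPM in CNS Treg libraries and at most 56.3 CPM in any other library. P2ry12, a purine receptor of microglia, had 135 to 153 CPM in CNS Treg libraries and was at 0 in 2 of the 4 CNS Tconv libraries.

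Other lists followed with the same group on top. The sum of 14 microglial genes was 2312 to 3121 CPM in CNS Treg libraries, 92.7 to 152 CPM in dLN Treg libraries, 175 to 509 CPM in CNS Tconv libraries and 155 to 233 CPM in dLN Tconv libraries. For 20 neutrophil genes the sums were 863 to 1978, 7.58 to 53.4, 10.8 to 16.9 and 7.51 to 17.6 CPM in the same group order, and for 16 dendritic cell and MHC class II genes they were 7729 to 8434, 518 to 1266, 163 to 1134 and 353 to 903 CPM. B cell transcripts overlapped between the groups, with 78 to 377 CPM in CNS Treg and 26.3 to 216 CPM in CNS Tconv libraries for 14 genes. CD8 T and NK cell transcripts were high in both CNS groups: 639 to 939 CPM in CNS Treg libraries, against 106 to 169 CPM in dLN Treg libraries, and 1029 to 1529.7 CPM in CNS Tconv libraries, against 303 to 326 CPM in dLN Tconv libraries. All 270 genes of the 11 lists of other cell types together made up 3.97 to 5.42% of the CPM in CNS Treg libraries and 0.669 to 1.25% in the others. They include 42 genes that macrophages share with T cells. Those 42 summed to 13493 to 19915.5 CPM in CNS Treg and 4837 to 6362 CPM in dLN Treg libraries. In Tconv libraries their sums were 7865 to 9196 CPM in the CNS and 5382 to 6639 CPM in the dLN. In bulk RNA, fewer cells of a type and less RNA per cell cannot be told apart, and whether these transcripts came from other cells was not tested.

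**Figure D1:**
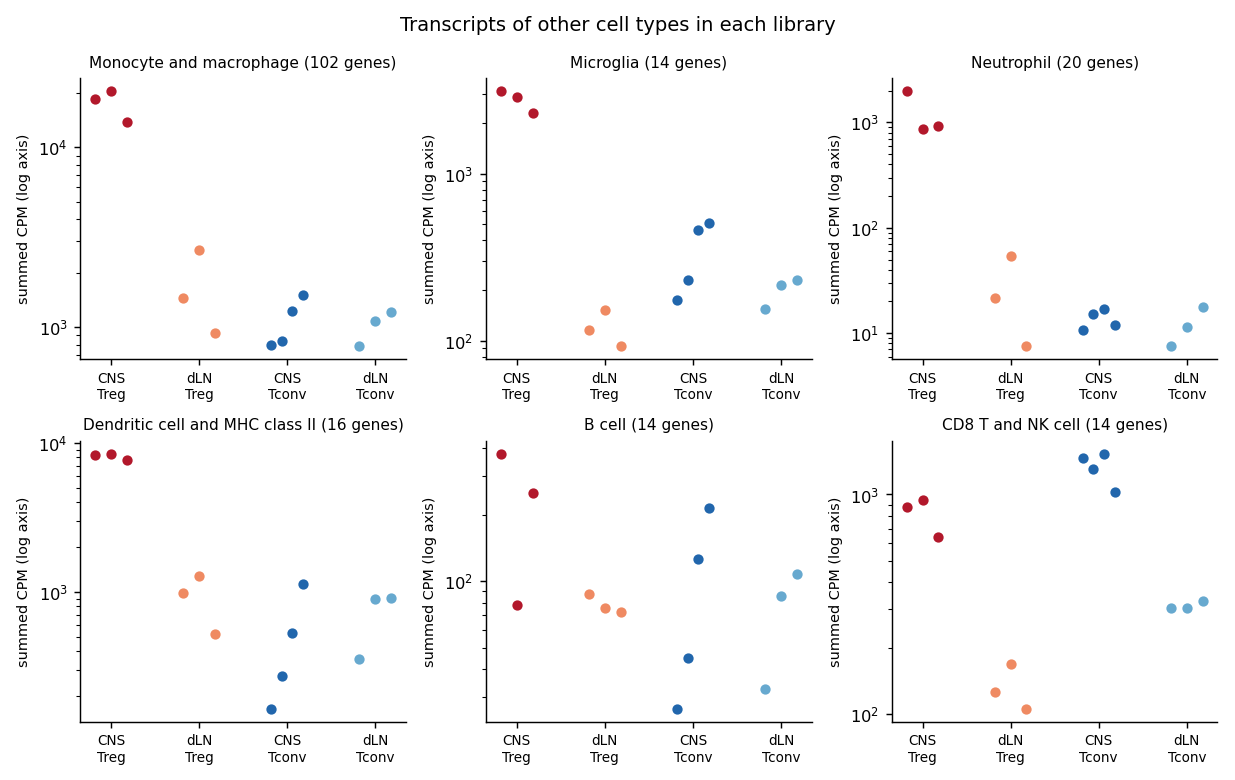
Summed CPM of 6 gene lists of other cell types, on a log axis, with each point a library of 1 of the 4 groups. The 3 CNS Treg libraries lie above all others for monocyte and macrophage, microglial, neutrophil and MHC class II genes, and the CNS Tconv libraries lie highest for CD8 T and NK cell genes.

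Of the 216 genes called higher, 62 (28.7%) belonged to these lists of other cell types, and 0 of the 58 called lower did (edgeR quasi-likelihood test). The lists do not hold every gene of those cells. How many of the 154 higher genes outside them reflect RNA of other cells was not tested. The called members were 26 of 102 tested monocyte and macrophage genes, 20 of 42 lysosomal and other genes that macrophages share with T cells, 4 of 14 microglial, 7 of 14 neutrophil, 1 of 16 dendritic cell and MHC class II, 2 of 13 CD8 T and NK cell and 2 of 5 oligodendrocyte genes. None was lower, against 1.73% higher and 0.465% lower over all genes tested. The median interaction was 4.77 over the monocyte and macrophage list, 4.17 over the microglial list and 7.98 over the neutrophil list, against 0.01 over all genes.

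Single genes of these lists varied. Cst3 (chr2:148871722-148875692) had 1757, 1626 and 1456 CPM in CNS Treg libraries, against 157, 164 and 152 CPM in dLN Treg libraries. The CNS Tconv libraries had 259.8, 251, 234 and 249.6 CPM of Cst3, against 114, 139 and 156 CPM in the dLN Tconv libraries. Cst3 encodes cystatin C, an inhibitor of cathepsins, and the CNS Treg libraries were far above the other groups, which spanned 114 to 259.8 CPM. Its CNS minus dLN difference was 3.35 ± 0.13 in Treg and 0.87 ± 0.12 in Tconv cells, and the interaction was 2.49 ± 0.17 (adjusted p = 1.39e-05, edgeR quasi-likelihood test, Benjamini-Hochberg adjusted). Ctss, the lysosomal protease cathepsin S, followed with 2.67 ± 0.27 (adjusted p = 0.000457). The 3 members of each list with the highest mean CPM in any group gave 31 genes. Of these, 10 were called higher and 21 were not called, against 1.73% called higher over all genes. For many of them the group with the highest mean was CNS Treg, so the choice is not independent of the call. Without CNS Tconv replicates 3 and 4, 5.19% of all genes were called higher. In that fit 8 of the 21 were called higher (adjusted p of 0.0019 to 0.0407, edgeR). They were Cd74, H2-Aa, H2-Ab1, Ly6d, Klrc1, Slc1a3, Kdr and Pecam1. Nkg7 and Ccl5, genes of cytotoxic lymphocytes, rose in the CNS in both cell types, and their interactions of -0.38 ± 0.38 and -0.02 ± 0.64 were not called (adjusted p = 0.691 and 1, edgeR), nor were those of the B cell gene Cd22 (-0.10 ± 1.28, adjusted p = 0.993) and of Ermn (-0.33 ± 0.67, adjusted p = 0.883). The microglial genes Tmem119 and Sparc averaged 304 and 214 CPM in CNS Treg libraries and at most 7.81 CPM in any other group, but both were at 0 in dLN Tconv libraries and neither interaction was called.

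Lyz2, the lysozyme gene of myeloid cells, had 1424, 1116 and 962 CPM in CNS Treg libraries and 219, 582 and 60.1 CPM in dLN Treg libraries. It had 0, 0.619, 8.14 and 8.96 CPM in CNS Tconv libraries and 30.2, 44.3 and 69.3 CPM in dLN Tconv libraries, so the CNS Treg libraries were the high ones and the CNS Tconv libraries the low ones. The interaction of 5.48 ± 1.26 (adjusted p = 0.0402, edgeR) thus joined a Tconv difference of -3.46 ± 0.89 that was called (adjusted p = 0.0408) to a Treg difference of 2.02 ± 0.87 that was not (adjusted p = 0.124). The neutrophil genes S100a8 and S100a9, subunits of calprotectin, averaged 234 and 246 CPM in CNS Treg libraries and at most 4.61 CPM in any other library. Leaving out 1 library ended the call of Lyz2 in 9 of 13 fits. The interaction of Lyz2 was 9.11 without CNS Tconv replicates 3 and 4 (adjusted p = 0.00298, edgeR). Cd74, the invariant chain of MHC class II, averaged 4109 ± 255 CPM in CNS Treg and 594 ± 146 CPM in dLN Treg libraries, yet its interaction of 3.14 ± 0.85 was not called (adjusted p = 0.081). Without CNS Tconv replicates 3 and 4 it was 4.61 (adjusted p = 0.0019).

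**Figure D2:**
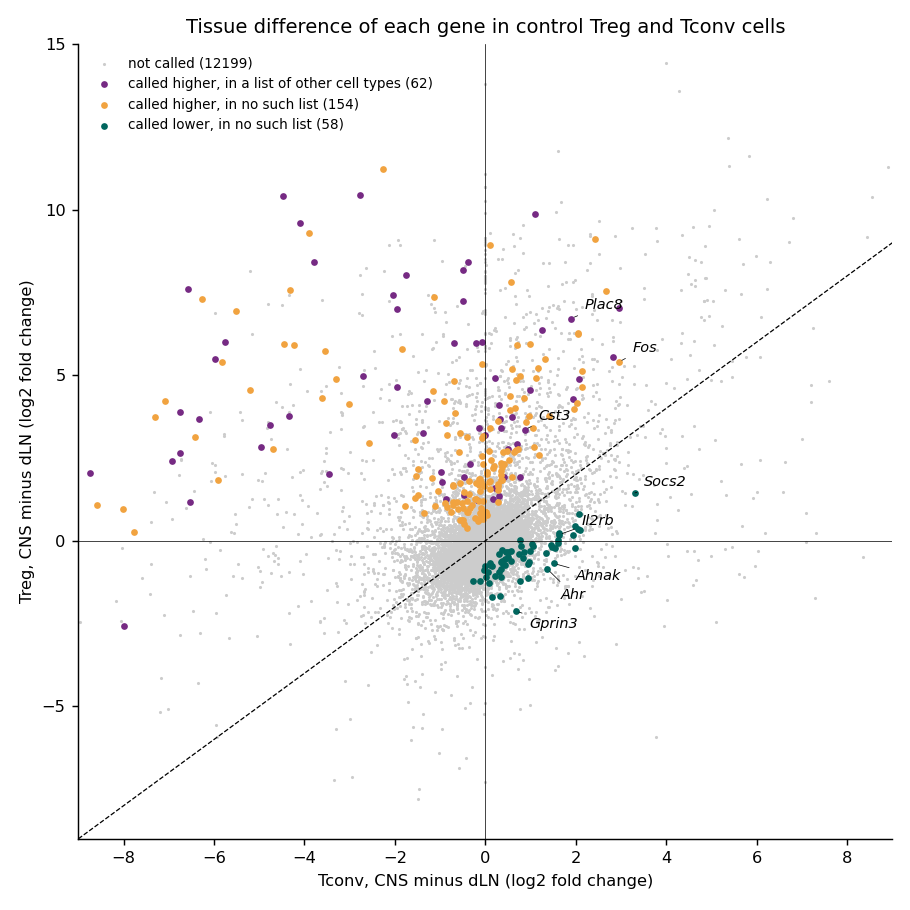
Log2 difference CNS minus dLN of 12473 genes in Treg cells (vertical axis) and in Tconv cells (horizontal axis), with the genes called in the interaction in colour; the dashed line marks equal differences. The 58 genes called lower lie below the line close to 0, and the 216 called higher lie above it over a wide range, 62 of them in lists of other cell types.

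The 58 genes called lower were in no list of other cell types. Of these, 20 belonged to a T cell list. Their median CNS minus dLN difference was -0.53 in Treg and 0.71 in Tconv cells, and 44 of 58 were below 0 in Treg and above 0 in Tconv cells. In 26 of them the Tconv difference was called higher and the Treg difference was not called, with Tconv differences of 0.46 to 2.10. In 27 the Treg difference was called lower and the Tconv difference was not called, with Treg differences of -2.12 to -0.40. Ahnak and Ahr were called in opposite directions, Socs2 and Cish were called higher in both cell types, and Itgal was called in neither. Mean CPM was higher in Treg than in Tconv cells for 54 of the 58 (93.1%) in the dLN and for 20 (34.5%) in the CNS, against 49.7% and 50.3% of all genes tested. These shares are not independent of the call. With the other cell type genes removed before scaling and testing, 44 of the 58 kept their call. That fit removed listed genes only, so any other RNA of such cells stayed in the CNS Treg libraries. Whether a share of RNA from other cells lowered the CNS Treg values of these genes was not tested.

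The IL-2 receptor showed this pattern in 2 of its chains. Il2ra (chr2:11642807-11693193) had 269, 417 and 473 CPM in CNS Treg libraries, against 546, 444 and 507 CPM in dLN Treg libraries. Il2ra stood at 88.5, 88, 55.8 and 58.5 CPM in CNS Tconv libraries, against 40.1, 24.2 and 21.3 CPM in dLN Tconv libraries. Every CNS Tconv library was above every dLN Tconv library, whereas the Treg groups overlapped and all Treg libraries stayed far above the Tconv libraries. The CNS minus dLN difference was -0.37 ± 0.26 in Treg cells (adjusted p = 0.358) and 1.35 ± 0.26 in Tconv cells (adjusted p = 0.011), an interaction of -1.72 ± 0.37 (adjusted p = 0.0297, edgeR quasi-likelihood test, Benjamini-Hochberg adjusted).

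Il2rb (chr15:78479256-78495271) had 1346, 1839 and 1477 CPM in CNS Treg libraries, against 1414, 1375 and 1324 CPM in dLN Treg libraries. For Tconv cells the values were 1239, 1193, 1401 and 829.8 CPM in CNS libraries, against 457, 333 and 345 CPM in dLN libraries. The Treg groups again overlapped and the Tconv groups did not, and CNS Tconv replicate 3 reached the range of the Treg libraries while replicate 4 was the lowest of its group. The difference was 0.18 ± 0.18 in Treg cells and 1.62 ± 0.18 in Tconv cells, with an interaction of -1.44 ± 0.25 (adjusted p = 0.0123, edgeR), or -1.49 without CNS Tconv replicates 3 and 4. Il2rb kept its call in each of the 13 fits that left out 1 library, and Il2ra lost it in 7 of them (adjusted p up to 0.0901).

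Of the feedback inhibitors that STAT5 switches on, Socs2 and Cish were called lower in the interaction while rising in both cell types. Socs2 (chr10:95385362-95417180) had 118, 157 and 76.3 CPM in CNS Treg libraries, against 43.3, 40.4 and 45.3 CPM in dLN Treg libraries. Among Tconv libraries it had 68.7, 76.6, 61.6 and 32.8 CPM in the CNS, against 7.9, 5.18 and 5.06 CPM in the dLN. Both CNS groups were above their dLN group with no overlap, and the dLN Tconv level was the lowest of the 4. The CNS minus dLN difference was 1.44 ± 0.31 in Treg (adjusted p = 0.00734) and 3.31 ± 0.33 in Tconv cells (adjusted p = 0.000424), an interaction of -1.86 ± 0.43 (adjusted p = 0.0404, edgeR). Cish, chosen after its values were seen, had 339, 589.7 and 368 CPM in CNS Treg libraries, against 252, 234 and 259 in dLN Treg libraries. Cish had 379, 261, 253 and 239 CPM in CNS Tconv libraries, against 79.4, 62.3 and 59.9 in dLN Tconv libraries, again without overlap in either cell type. Its interaction was -1.27 ± 0.30 (adjusted p = 0.0443, edgeR). Socs2 and Cish each lost the call in 10 of the 13 fits that left out 1 library. Socs3, which restrains cytokine signals through gp130, was called in the other direction and is described with the genes called higher. Over the 15 genes of the IL-2 and STAT5 list, 4 were called lower and 1 higher, against 0.465% and 1.73% of all genes, with a median interaction of -0.13.

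Promoters were sought for Il2ra, Il2rb, Cish and Socs2, and the RefSeq set used held none for Il2rb and Socs2. Cish and Il2ra are known targets of STAT5. Their promoters are shown from 250 bases before to 50 bases after the start of the gene. Both are from RefSeq, build GRCm38.p6, and read 5′ to 3′ on the strand of the gene. Capitals mark the STAT motif TTCNNNGAA, which reads the same on both strands; it was found in 8.3% of all 32851 promoters, in 6.93% of 12492 promoters of tested genes, and in 5 of 47 promoters (10.6%) of the 38 genes called lower that matched the table. The Cish window, chr9:107296409-107296708 on the plus strand, holds 2 such motifs. The Il2ra window, chr2:11642542-11642841 on the plus strand, holds 0. These are letters in a window and were not tested for binding.
Cish: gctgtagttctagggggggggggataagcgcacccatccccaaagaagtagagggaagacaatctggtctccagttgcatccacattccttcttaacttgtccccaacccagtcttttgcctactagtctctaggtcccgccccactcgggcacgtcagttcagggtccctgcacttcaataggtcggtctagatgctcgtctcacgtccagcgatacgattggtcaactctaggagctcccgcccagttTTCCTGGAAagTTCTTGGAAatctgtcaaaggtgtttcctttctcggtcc
Il2ra: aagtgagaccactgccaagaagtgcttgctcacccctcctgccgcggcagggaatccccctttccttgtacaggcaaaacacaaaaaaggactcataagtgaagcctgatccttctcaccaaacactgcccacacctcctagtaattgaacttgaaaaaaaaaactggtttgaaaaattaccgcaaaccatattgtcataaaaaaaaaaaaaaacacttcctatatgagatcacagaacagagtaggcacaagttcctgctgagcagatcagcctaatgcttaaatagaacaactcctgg

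The Treg identity list held 6 lower and 0 higher calls among 22 tested genes (edgeR; 12 lower and 0 higher at an unadjusted p under 0.05, against 7.14% and 9.35% of all genes), with a median interaction of -1.07 beside 0.01 over all genes. The members called were Il2ra, Il2rb, Socs2, Nrp1, Ikzf3 and Capg. Il2ra, Il2rb and Socs2 are also in the IL-2 and STAT5 list, so the counts of the 2 lists are not independent. Both lists were chosen with earlier results of these data known. Over the list, 11 genes were called higher and 1 lower in the CNS than in the dLN in Tconv cells, against 4.14% and 1.55% of all genes. In Treg cells 5 were called higher and 2 lower, against 11.6% and 7.46% of all genes. Nrp1 (chr8:128358604-128503363) had 383, 356 and 410.5 CPM in CNS Treg libraries, against 395, 466 and 428 CPM in dLN Treg libraries. The CNS Tconv libraries had 172, 136, 152 and 142 CPM of Nrp1, against 69.5, 75.3 and 73 CPM in the dLN Tconv libraries. Nrp1 encodes neuropilin 1, a receptor for semaphorins and a surface marker of many thymus-derived mouse Treg cells. The Tconv groups did not overlap and the Treg groups did, with all Treg libraries above all Tconv libraries. The difference was -0.17 ± 0.12 in Treg (adjusted p = 0.343) and 1.05 ± 0.11 in Tconv cells (adjusted p = 0.000424), an interaction of -1.22 ± 0.16 (adjusted p = 0.00232, edgeR).

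Ikzf3, which encodes the zinc finger factor Aiolos, averaged 163 ± 9.16 CPM in CNS Treg and 202 ± 20.4 CPM in dLN Treg libraries, and 115 ± 9.55 CPM in CNS Tconv and 57.9 ± 5.14 CPM in dLN Tconv libraries (SD). The CNS was the lower tissue in Treg cells and the higher one in Tconv cells, without overlap in either, but the Treg difference of -0.31 ± 0.12 was not called (adjusted p = 0.095, edgeR). The Tconv difference of 0.99 ± 0.12 was called (adjusted p = 0.000761), and the interaction was -1.30 ± 0.17 (adjusted p = 0.00223). Nrp1 and Ikzf3 kept the interaction call in each of the 13 fits that left out 1 library. Capg, an actin-capping protein, was chosen after its values were seen and had an interaction of -1.38 ± 0.32 (adjusted p = 0.0404, edgeR). Its mean was 803 CPM in CNS Treg libraries, 681 CPM in dLN Treg libraries, 399 CPM in CNS Tconv libraries and 129.6 CPM in dLN Tconv libraries. Capg lost the interaction call in 10 of these 13 fits.

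Tnfrsf1b encodes TNFR2, a TNF receptor that the study deletes in Treg cells of other mice. It had 456, 715 and 672 CPM in CNS Treg libraries, against 807, 745 and 867 CPM in dLN Treg libraries. In Tconv libraries Tnfrsf1b had 231, 177, 200.1 and 229 CPM in the CNS, against 127, 133 and 114 CPM in the dLN. The groups did not overlap in either cell type, the CNS being the lower tissue in Treg and the higher one in Tconv cells. The Treg difference was -0.39 ± 0.16 and was not called (adjusted p = 0.107, edgeR), the Tconv difference was 0.75 ± 0.15 (adjusted p = 0.0149), and the interaction was -1.14 ± 0.22 (adjusted p = 0.0213). It lost its call in 3 of the 13 fits that left out 1 library (adjusted p up to 0.07).

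Tnfrsf1a, the gene of TNFR1, was called in the other direction. Tnfrsf1a (chr6:125349362-125362484) had 56.1, 91.8 and 62.7 CPM in CNS Treg libraries, against 32.1, 38.1 and 36.5 CPM in dLN Treg libraries. Tnfrsf1a stood at 43.8, 53.7, 52.5 and 54.1 CPM in CNS Tconv libraries, against 75.7, 77.9 and 62.8 CPM in dLN Tconv libraries. It was higher in the CNS in Treg cells and lower there in Tconv cells, with no overlap in either cell type. The Treg difference was 0.98 ± 0.19 (adjusted p = 0.00408, edgeR), the Tconv difference -0.50 ± 0.17 (adjusted p = 0.108) and the interaction 1.48 ± 0.25 (adjusted p = 0.0109). Myeloid cells also express Tnfrsf1a, and its part in the CNS Treg value was not tested. The other 21 tested genes of the TNF receptor and NF-kB list were not called by edgeR, and the list's median interaction was 0.02. Its 1 higher and 1 lower call stand beside 1.73% and 0.465% of all genes. DESeq2 also called 1 higher and 1 lower, against 4.02% and 1.73% of all genes. By limma 3 were higher and 1 lower, against 4.11% and 1.89% of all genes.

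Among helper lineage genes, Ahr, Rora and Hopx were called lower and Ifngr2 higher, of 20 tested in the Th1 and Th17 list (0.465% lower and 1.73% higher over all genes). Ahr (chr12:35497974-35535038) had 53.1, 64 and 58.3 CPM in CNS Treg libraries, against 101, 96.1 and 119 CPM in dLN Treg libraries. For Tconv cells the values were 35, 33.3, 22.5 and 36.8 CPM in CNS libraries, against 13.9, 9.6 and 13.6 CPM in dLN libraries. Ahr encodes the aryl hydrocarbon receptor, a ligand-activated factor active in Th17 and Treg cells. The CNS was the low tissue in Treg and the high tissue in Tconv cells, with no overlap in either. The Treg difference was -0.85 ± 0.20 (adjusted p = 0.0122) and the Tconv difference 1.37 ± 0.20 (adjusted p = 0.00222), both called in opposite directions, with an interaction of -2.22 ± 0.28 (adjusted p = 0.00192, edgeR quasi-likelihood test, Benjamini-Hochberg adjusted).

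Rora, which encodes a nuclear receptor of Th17 cells, had 200.2, 234 and 181 CPM in CNS Treg libraries, against 155, 149 and 144 CPM in dLN Treg libraries. Rora had 268, 245, 226 and 143 CPM in CNS Tconv libraries, against 67.3, 59.2 and 40.2 CPM in dLN Tconv libraries. CNS libraries were above dLN libraries in both cell types without overlap, by 0.46 ± 0.22 in Treg (adjusted p = 0.165) and 1.99 ± 0.22 in Tconv cells (adjusted p = 0.000513). The dLN level was higher in Treg than in Tconv libraries, and the interaction was -1.53 ± 0.31 (adjusted p = 0.0226, edgeR). Hopx, a homeodomain protein without DNA binding, overlapped between the tissues in Treg cells, with differences of 0.35 ± 0.24 in Treg and 2.04 ± 0.24 in Tconv cells and an interaction of -1.69 ± 0.34 (adjusted p = 0.0226). Ifngr2, a chain of the interferon gamma receptor, averaged 72.4 ± 13.6 CPM in CNS Treg and 40.6 ± 8.2 in dLN Treg libraries, and 24.5 ± 15.3 in CNS Tconv and 62.5 ± 7.61 CPM in dLN Tconv libraries. It fell by 1.35 in Tconv cells on the log2 scale (adjusted p = 0.0423), and the interaction was 2.18 ± 0.52 (adjusted p = 0.0465, edgeR), a call lost in 11 of the 13 fits that left out 1 library.

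**Figure D3:**
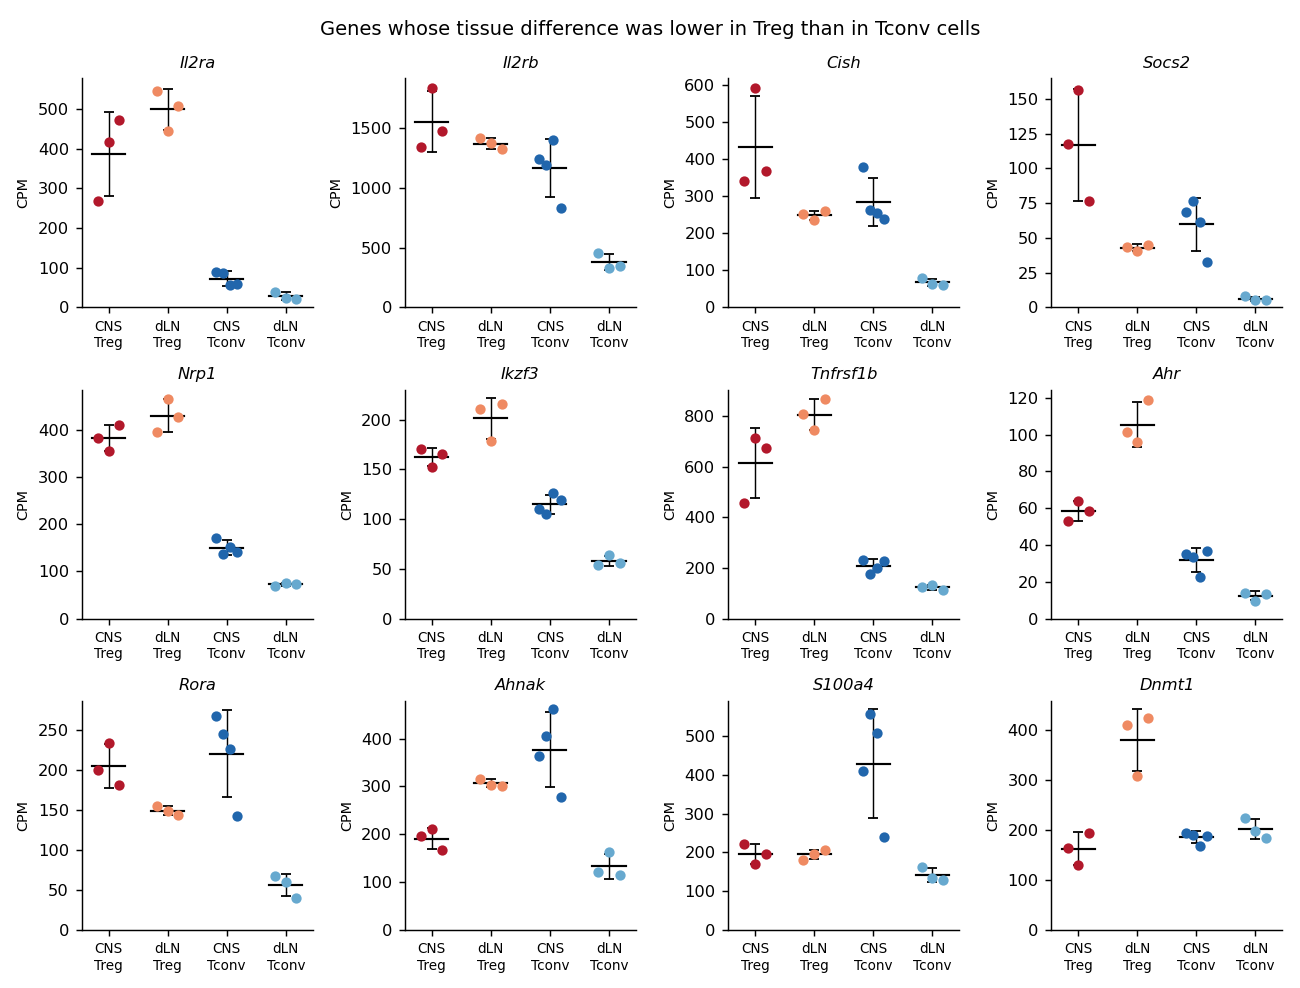
CPM of 12 genes called lower in the interaction; each point is a library, the line is the mean and the bar is the SD (n = 3, 3, 4 and 3). In dLN Tconv libraries 11 of these genes have their lowest group mean, and Dnmt1 instead stands out in dLN Treg libraries.

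Genes of the cytoskeleton and of S100 and annexin proteins, which mark activated and migrating T cells, made up a further group. In this list of 25 genes, 7 rose and 1 fell in the CNS relative to the dLN in Treg cells, whereas 17 rose and 0 fell in Tconv cells (edgeR quasi-likelihood test; over all genes, 11.6% and 7.46% in Treg and 4.14% and 1.55% in Tconv cells). In the interaction 5 were called lower (Ahnak, Lgals1, S100a10, S100a4 and Vim) and 1 higher (Anxa1), and at an unadjusted p under 0.05 the counts were 15 lower and 1 higher, against 7.14% lower and 9.35% higher over all genes. Without CNS Tconv replicates 3 and 4, 14 were called lower, when 2.24% of all genes were. The list's median interaction was -0.82. Ahnak (chr19:8989284-9076914) had 195, 211 and 166 CPM in CNS Treg libraries, against 316, 302 and 301 CPM in dLN Treg libraries. Among Tconv libraries it had 363, 406, 461 and 277 CPM in the CNS, against 120.2, 162 and 115 CPM in the dLN. The CNS was the low tissue in Treg and the high tissue in Tconv cells, with no overlap. Ahnak encodes a large scaffold protein that binds calcium channels in T cells. Its difference was -0.68 ± 0.18 in Treg (adjusted p = 0.0201) and 1.51 ± 0.18 in Tconv cells (adjusted p = 0.00068), and the interaction was -2.19 ± 0.25 (adjusted p = 0.00129, edgeR).

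S100a4, a calcium-binding protein of motile cells, had 221, 171 and 196 CPM in CNS Treg libraries, against 181, 195 and 207 CPM in dLN Treg libraries. It had 409, 559, 508 and 241 CPM in CNS Tconv libraries, against 162, 133 and 127 CPM in dLN Tconv libraries. The Treg groups overlapped with near-equal means, and the CNS Tconv libraries were all above the dLN Tconv libraries, replicate 4 the least. The interaction was -1.60 ± 0.33 (adjusted p = 0.0251, edgeR). S100a10, the partner of annexin A2, had an interaction of -1.68 ± 0.34 (adjusted p = 0.0226) and Lgals1, the gene of galectin 1, one of -1.58 ± 0.29 (adjusted p = 0.0151), each with a Treg difference that was not called. Vim (vimentin) and Anxa1 (annexin A1) were chosen after their values were seen. Vim had an interaction of -1.14 ± 0.26 (adjusted p = 0.0366, edgeR). The call of Vim was lost in 11 of the 13 fits that left out 1 library, and that of Anxa1 in 6. Anxa1 rose in the CNS in both cell types, averaging 104 CPM in CNS Treg and 6.54 in dLN Treg libraries, and 155 in CNS Tconv and 39.5 CPM in dLN Tconv libraries, with an interaction of 2.02 ± 0.42 (adjusted p = 0.0264, edgeR).

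The adhesion genes Cd44 and Itgal were also lower in the interaction, as 2 of 20 tested in the integrin and adhesion list, against 0.465% of all genes. Cd44, a hyaluronan receptor of activated T cells, averaged 212 ± 12 CPM in CNS Treg and 211 ± 24.1 in dLN Treg libraries, and 329 ± 19.7 in CNS Tconv and 192 ± 20.3 CPM in dLN Tconv libraries. Its interaction was -0.77 ± 0.16 (adjusted p = 0.0295, edgeR). Itgal, the alpha chain of LFA-1, had one of -0.65 ± 0.15 (adjusted p = 0.0367). Both lost the call in 11 of the 13 fits that left out 1 library. Trat1, an adaptor of the T cell receptor complex, was the single call by edgeR among 22 T cell receptor genes. Its interaction was -0.89 ± 0.20 (adjusted p = 0.039, edgeR), and it fell in Treg cells by 0.75 on the log2 scale. In this list DESeq2 and limma each called 3 lower and 1 higher. Over all genes DESeq2 called 1.73% lower and 4.02% higher, and limma 1.89% and 4.11%.

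In a second set of lower genes the Treg difference was called and dLN Treg libraries had the highest group mean. Gprin3 (chr6:59347226-59426294) had 9.27, 15.6 and 20.4 CPM in CNS Treg libraries, against 76, 61.4 and 59.6 CPM in dLN Treg libraries. The CNS Tconv libraries had 52.2, 32.8, 31.3 and 26.7 CPM of Gprin3, against 17, 30.5 and 20.1 CPM in the dLN Tconv libraries. The dLN Treg libraries were the high ones, and the Tconv groups overlapped. Gprin3 had the most negative interaction among the genes named here, -2.79 ± 0.45 (adjusted p = 0.00898, edgeR quasi-likelihood test, Benjamini-Hochberg adjusted), and a Treg difference of -2.12 ± 0.33 (adjusted p = 0.00128). Dnmt1, the maintenance DNA methyltransferase of dividing cells, had 163, 129 and 195 CPM in CNS Treg libraries, against 409.9, 309 and 424 in dLN Treg libraries. Dnmt1 had 194, 190.5, 168 and 189 CPM in CNS Tconv libraries, against 223, 198 and 183 in dLN Tconv libraries, so that dLN Treg was the group apart. Its interaction was -1.11 ± 0.22 (adjusted p = 0.0224, edgeR). Fut7, a fucosyltransferase that makes selectin ligands, Hist1h1e, a linker histone, Zfp367, a zinc finger protein, and Slc22a15, a member of the organic ion transporter family, belonged to this set, with interactions of -1.97 ± 0.41, -1.86 ± 0.40, -1.98 ± 0.46 and -2.08 ± 0.44. Their Treg differences were -1.21 ± 0.30, -1.70 ± 0.30, -1.66 ± 0.34 and -1.14 ± 0.32, and the Tconv differences were 0.76 ± 0.28, 0.15 ± 0.27, 0.32 ± 0.31 and 0.95 ± 0.30, and none of these Tconv differences was called. Replication-dependent histone transcripts mostly lack poly(A) tails, which limits what Hist1h1e counts measure in polyadenylated RNA.

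In the remaining genes among the 12 most negative interactions the Tconv difference was called and the Treg difference was not. Atp2b4, a calcium pump of the plasma membrane, had 28.4, 24.4 and 35.3 CPM in CNS Treg libraries, against 33.5, 28.9 and 40.3 in dLN Treg libraries. It had 43.1, 26.6, 32.5 and 21.3 CPM in CNS Tconv libraries, against 7.57, 8.49 and 7.39 in dLN Tconv libraries, which were the single low group. The interaction was -2.20 ± 0.36 (adjusted p = 0.00967, edgeR). Mdfic, Dkkl1 and Osbpl3, an oxysterol-binding protein family member, had interactions of -1.77 ± 0.42, -1.76 ± 0.42 and -1.75 ± 0.39, with Tconv differences of 2.10 ± 0.31, 1.94 ± 0.30 and 1.53 ± 0.28 that were called and Treg differences that were not. Of the 58 genes, 10 kept their call in each of the 13 fits that left out 1 library: Ahnak, Ahr, Atp2b4, Crmp1, Gprin3, Ikzf3, Il2rb, Nrp1, Sept11 and Tmem154. Crmp1, Sept11 and Tmem154 are outside the rule for named genes and were chosen after their values were seen. The other lower genes that the rule names lost the call in 1 to 12 of these fits, with no change of sign.

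Some programs moved in Treg cells without a called interaction. Of 38 cell cycle genes, 22 fell and 0 rose in the CNS relative to the dLN in Treg cells, against 0 called in Tconv cells, yet 0 were called in the interaction by edgeR (13 lower at an unadjusted p under 0.05; 5 lower by DESeq2 and 6 by limma). Over all genes 11.6% rose and 7.46% fell in Treg cells, and 16.5% had an unadjusted p under 0.05 in the interaction. The median difference was -1.35 in Treg and -0.36 in Tconv cells. Of 41 cytosolic ribosomal protein genes, 38 fell in Treg and 0 were called in Tconv cells (edgeR), with 0 called in the interaction (17 lower and 1 higher at an unadjusted p under 0.05; 2 lower and 1 higher by DESeq2 and by limma). Their median difference was -0.76 in Treg and -0.28 in Tconv cells. For both lists a difference between the cell types is therefore not shown by these calls.

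Other T cell lists held no call in the interaction by edgeR. Over all genes tested, 9.35% were higher and 7.14% lower at an unadjusted p under 0.05, DESeq2 called 4.02% higher and 1.73% lower, and limma 4.11% higher and 1.89% lower. Several of the following counts are near these shares. These were effector and tissue Treg genes (0 of 20; 1 higher and 5 lower at an unadjusted p under 0.05; 4 lower by DESeq2), cytokines (0 of 17; 6 higher and 1 lower; 3 higher by DESeq2), Tfh genes (0 of 13; 1 higher and 1 lower; 1 lower by DESeq2), chemokine receptors (0 of 14; 1 higher and 4 lower; 2 lower by DESeq2) and naive and central T cell genes (0 of 20; 5 higher and 0 lower; 1 higher by DESeq2). They also included oxidative phosphorylation (0 of 32; 12 lower; 2 lower by DESeq2 and limma), cholesterol synthesis (0 of 22; 1 higher and 1 lower; 0 by DESeq2 and 1 higher by limma) and survival genes (0 of 20; 1 higher and 3 lower; 1 higher by DESeq2 and 0 by limma). limma called 2 higher and 2 lower effector Treg genes, 1 higher cytokine, 1 lower Tfh gene, 2 lower chemokine receptors and 2 higher naive genes. Of the chemokine receptors, 5 rose and 2 fell in Treg cells and 4 rose and 0 fell in Tconv cells, with a median interaction of -0.59. For 1 of them a group had no count. With its group means held at or above 3 counts per library the median was -0.30. Without CNS Tconv replicates 3 and 4, edgeR called 7 lower oxidative phosphorylation genes, 3 higher cytokines, 2 lower chemokine receptors, 2 higher naive genes, 1 higher and 2 lower effector Treg genes and 1 lower Tfh gene, and 5.19% of all genes tested were then called higher and 2.24% lower. In the naive list of the full fit 5 fell and 0 rose in each cell type. Beside these counts and those of the chemokine receptors, the full fit called 11.6% of all genes higher and 7.46% lower in Treg cells. In Tconv cells it called 4.14% higher and 1.55% lower.

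**Figure D4:**
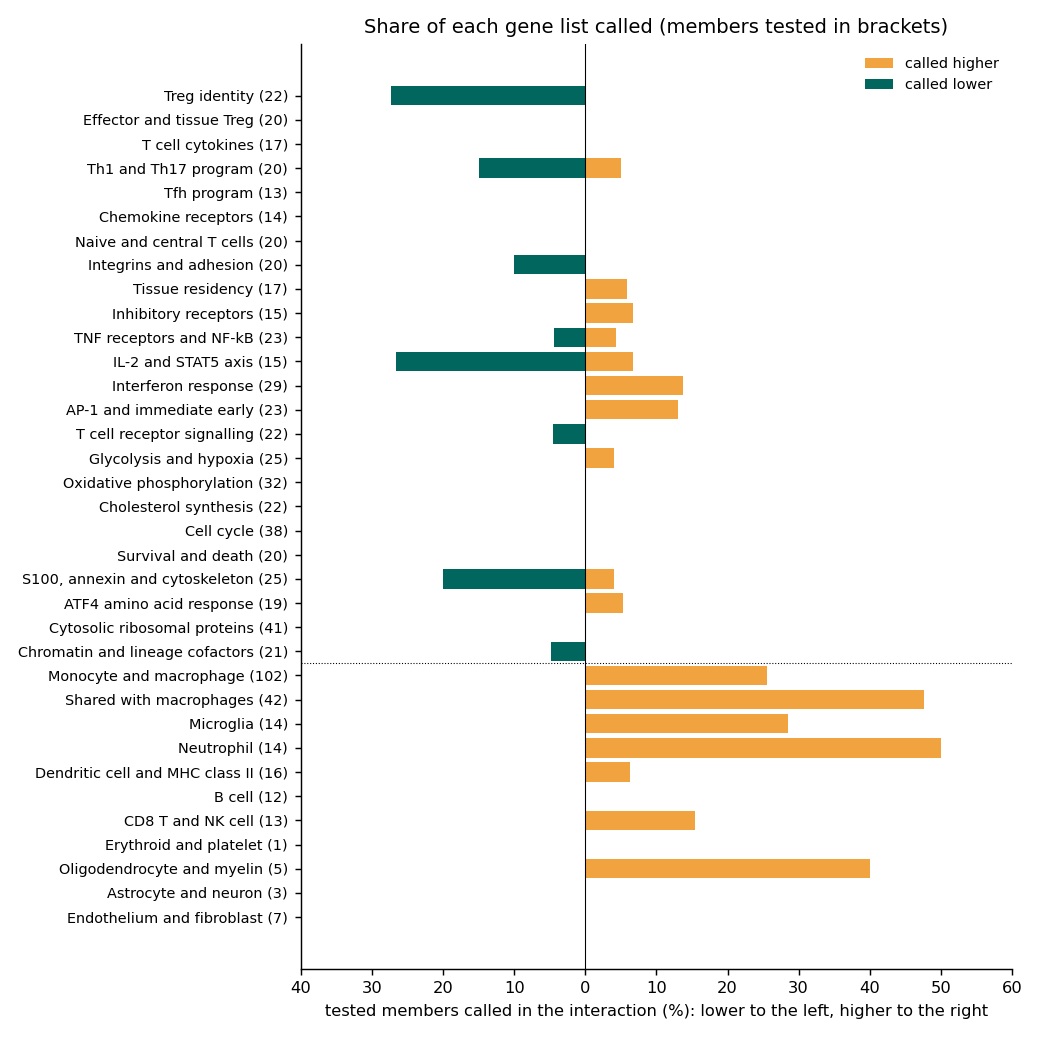
Percentage of the tested members of each gene list called in the interaction, lower to the left and higher to the right, with the number tested in brackets; T cell lists stand above the dotted line and lists of other cell types below it. Lower calls occur in T cell lists, led by Treg identity (6 of 22) and the IL-2 and STAT5 list (4 of 15), and lists of other cell types hold higher calls and no lower call. The lower calls of Il2ra, Il2rb and Socs2 count in both of these leading lists.

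Of the 154 genes called higher outside the lists of other cell types, 15 belonged to a T cell list. Interferon response genes held 4 of these, Irf7, Oasl2, Usp18 and Ifit2, out of 29 tested; 13 were higher and 0 lower at an unadjusted p under 0.05. Over all genes 1.73% were called higher, and 9.35% were higher at that unadjusted p. In the list 23 genes rose and 0 fell in the CNS relative to the dLN in Treg cells, and 5 rose and 0 fell in Tconv cells, with medians of 1.53 and 0.69. The shares over all genes were 11.6% higher and 7.46% lower in Treg cells, and 4.14% and 1.55% in Tconv cells. Irf7 (chr7:141262706-141266481) had 575, 887 and 462 CPM in CNS Treg libraries, against 93.9, 73.9 and 101 CPM in dLN Treg libraries. Irf7 stood at 310.5, 287, 268 and 258 CPM in CNS Tconv libraries, against 139, 101 and 157 CPM in dLN Tconv libraries. Irf7 encodes a transcription factor that amplifies type I interferon. CNS libraries were above dLN libraries in both cell types without overlap, with CNS Treg replicate 2 the highest. The difference was 2.84 ± 0.24 in Treg (adjusted p = 1.69e-05) and 1.08 ± 0.21 in Tconv cells (adjusted p = 0.0116), an interaction of 1.76 ± 0.30 (adjusted p = 0.0111, edgeR quasi-likelihood test, Benjamini-Hochberg adjusted).

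Usp18 (chr6:121245906-121270917) had 196, 492 and 139 CPM in CNS Treg libraries, against 47.4, 37.1 and 43.2 CPM in dLN Treg libraries. For Tconv cells the values were 61, 79.3, 77.3 and 74.3 CPM in CNS libraries, against 78.6, 46.7 and 83 CPM in dLN libraries. Usp18 encodes a protease that removes the interferon-induced modifier ISG15. The Tconv groups overlapped, and the CNS Treg libraries were above all others. The interaction was 2.62 ± 0.50 (adjusted p = 0.0185, edgeR). Oasl2, of the oligoadenylate synthetase family, had an interaction of 2.80 ± 0.52 (adjusted p = 0.0155) and Ifit2, an interferon-induced RNA-binding protein, one of 1.89 ± 0.44 (adjusted p = 0.0404), a call lost in 11 of the 13 fits that left out 1 library. Reads of Oasl2 and its near relatives may be split by the counting. The 3 CNS Treg libraries that carried high myeloid sums carried these values too, and the part of that RNA in them was not tested.

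In the AP-1 and immediate early list, 3 of 23 tested genes were called higher (Fos, Ier3 and Dusp6; 1.73% of all genes were) and 0 lower by edgeR, with 7 higher and 1 lower at an unadjusted p under 0.05; DESeq2 called 3 higher and 1 lower, and limma 4 higher and 0 lower. Fos (chr12:85473890-85477273) had 406, 783 and 410.3 CPM in CNS Treg libraries, against 9.46, 20.1 and 8.35 CPM in dLN Treg libraries. Among Tconv libraries it had 120.5, 129, 135 and 95.4 CPM in the CNS, against 18.5, 13.7 and 14.5 CPM in the dLN. Fos encodes a subunit of the AP-1 factor that rises within minutes of stimulation or cell handling. CNS libraries were above dLN libraries in both cell types, and the CNS Treg libraries were the highest. The difference was 5.39 ± 0.38 in Treg and 2.95 ± 0.33 in Tconv cells, both called, with an interaction of 2.45 ± 0.44 (adjusted p = 0.0136, edgeR). Ier3, an immediate early gene, had an interaction of 4.22 ± 0.71 (adjusted p = 0.00982) and Dusp6, a phosphatase that limits ERK, one of 2.18 ± 0.41 (adjusted p = 0.0185). Dusp6 averaged 96.1 CPM in CNS Treg and 27.2 in dLN Treg libraries, and 55.5 in CNS Tconv and 71.1 CPM in dLN Tconv libraries.

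The other higher calls in T cell lists were single genes. Socs3 (chr11:117966079-117970047) had 229, 508 and 207 CPM in CNS Treg libraries, against 80.1, 68.7 and 75.7 CPM in dLN Treg libraries. The CNS Tconv libraries had 205, 113, 155 and 139 CPM of Socs3, against 181, 154 and 111 CPM in the dLN Tconv libraries. The Tconv groups overlapped and the CNS Treg libraries were above all others, with an interaction of 2.03 ± 0.43 (adjusted p = 0.0279, edgeR). Slc2a1, the glucose transporter GLUT1, was the single call by edgeR among 25 glycolysis and hypoxia genes, at 1.49 ± 0.33 (adjusted p = 0.0347, edgeR). Over all genes 1.73% were called higher. In this list DESeq2 and limma each called 4 higher and 0 lower, against 4.02% and 4.11% of all genes higher. Without CNS Tconv replicates 3 and 4, edgeR called 5 of the list higher, against 5.19% of all genes. Slc2a1 averaged 195 ± 65.4 CPM in CNS Treg and 55.1 ± 9.43 in dLN Treg libraries, and 87 ± 15.7 in CNS Tconv and 68.9 ± 14 CPM in dLN Tconv libraries. Rgs2, a regulator of G protein signalling, rose in both cell types, by 2.59 ± 0.20 in Treg and 1.19 ± 0.19 in Tconv cells, with an interaction of 1.40 ± 0.27 (adjusted p = 0.0187, edgeR). Cebpb, a transcription factor abundant in myeloid cells, had 329, 599.9 and 215 CPM in CNS Treg libraries and 30.2 to 33.9 CPM in dLN Treg libraries, with an interaction of 2.67 ± 0.43 (adjusted p = 0.00945). Lair1, an inhibitory collagen receptor of many leukocytes, had one of 3.35 ± 0.72 (adjusted p = 0.0305) and 14.5 to 53.9 CPM in CNS Tconv libraries. Its Tconv difference was 0.28 with all libraries and -0.84 without CNS Tconv replicates 3 and 4, neither called, and the interaction was then 4.48 (adjusted p = 0.00205, edgeR). Myeloid cells are known to express Cebpb, Lair1 and Socs3. In the 13 fits that left out 1 library, Slc2a1 lost its call in 8, Socs3 and Lair1 in 6 each and Rgs2 in 3, while Cebpb kept it in all.

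**Figure D5:**
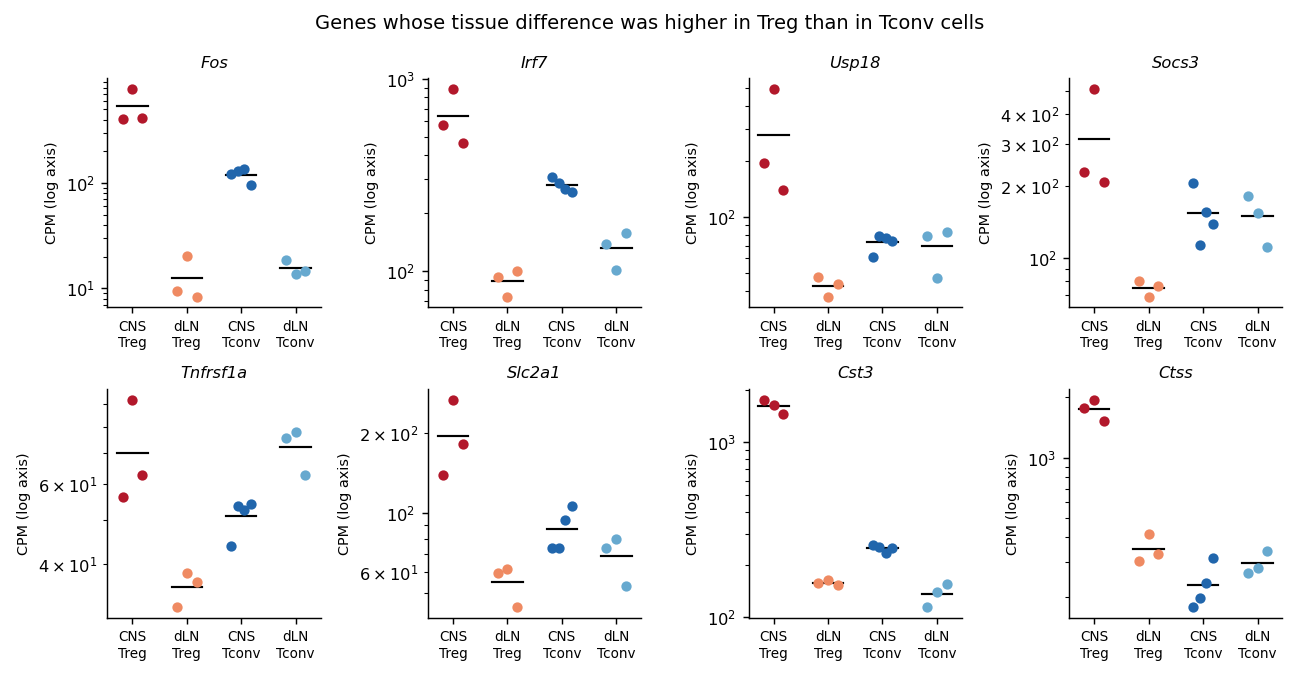
CPM of 8 genes called higher in the interaction, each on its own log axis; each point is a library and the line is the mean (n = 3, 3, 4 and 3). Cst3 and Ctss belong to lists of other cell types, the other 6 to T cell lists, and CNS Treg has the highest group mean of Fos, Irf7, Usp18, Socs3, Slc2a1, Cst3 and Ctss.

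The 12 genes with the most positive interactions, at or over 10 CPM in a group, with 10 counts in every group, an official symbol and no place in a list of other cell types, had their highest group mean in CNS Treg libraries. The myeloid sums were highest in the same libraries, and the part of RNA from other cells in these 12 genes was not tested. The condition on symbols left out AA467197 (4.87 ± 0.83, adjusted p = 0.0107, edgeR) and B430306N03Rik (4.53 ± 0.74, adjusted p = 0.00945), which would otherwise rank among the 12. Ifi205, an interferon-inducible gene of the p200 family, had 54.3, 131 and 57.4 CPM in CNS Treg libraries, against 1.71, 1.54 and 1.08 in dLN Treg libraries. It had 0, 0, 0 and 0.911 CPM in CNS Tconv libraries, against 0.129, 0.414 and 1.89 in dLN Tconv libraries. The CNS Treg libraries were the high ones and 3 of the 4 CNS Tconv libraries were at 0, which leaves the fitted interaction of 7.64 ± 1.44 (adjusted p = 0.0173, edgeR) dependent on a handful of counts. The p200 genes are near-identical, so the counting may have split their reads. Dab2, an endocytic adaptor found in macrophages, had an interaction of 7.16 ± 1.35 (adjusted p = 0.0173) and Upp1, uridine phosphorylase, one of 5.40 ± 0.99 (adjusted p = 0.0152).

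Spon1, Olfm1, Pstpip2, Napsa, C4b, Gatm, Phyhd1 and Eps8 ranged from 4.59 ± 1.01 for Eps8 to 5.69 ± 1.36 for Spon1 (edgeR). They lost the call in 6 to 11 of the 13 fits that left out 1 library, Ifi205 and Dab2 in 2 each and Upp1 in 1. C4b is a complement component, Napsa an aspartic protease and Gatm an enzyme of creatine synthesis. App, the gene of the amyloid precursor protein, had 74.7, 175 and 97.9 CPM in CNS Treg libraries, against 7.56, 13.9 and 7.97 in dLN Treg libraries. It had 11.9, 12.3, 18.3 and 47.4 CPM in CNS Tconv libraries, against 50.3, 34.3 and 38.1 in dLN Tconv libraries. The CNS Treg libraries were above all others, and the CNS Tconv libraries overlapped the dLN Tconv libraries through replicate 4. Its interaction was 4.43 ± 0.68 (adjusted p = 0.00762, edgeR). The Tconv difference of App was -0.87 and not called with all libraries, and -1.76 and called without CNS Tconv replicates 3 and 4 (adjusted p = 0.0104, edgeR). App kept its call in each of the 13 fits that left out 1 library, as did 71 of the 216 genes called higher, 28 of them in lists of other cell types.

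Of the 216 genes, 41 had fewer than 10 counts in a group, so that a fitted fold means little; the smallest p among these belonged to Gpr141, Camp, Ltf, Ctnnd1 and Cd300ld. Camp and Ltf encode cathelicidin and lactoferrin of neutrophil granules. Camp had 63.6, 32 and 36.7 CPM in CNS Treg libraries and at most 0.755 CPM in any other library. Gpr141, an orphan receptor, had 57, 84 and 49 CPM in CNS Treg libraries and at most 1.67 CPM in any other library. Ctnnd1, the catenin p120, had 11.1, 11.7 and 11.8 CPM in CNS Treg and 7.68, 4.68 and 4.1 in dLN Treg libraries, 1.36, 5.04 and 3.47 in dLN Tconv libraries, and no count in the 4 CNS Tconv libraries. Of all 216, the Treg difference was called higher in 202 and lower in 1, and the Tconv difference was called higher in 18 and lower in 25.

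The same contrast was computed in icKO libraries, from mice of the genotype Foxp3Cre-ERT2 x Tnfrsf1bFlox/Flox, in which the tamoxifen-induced Cre removes Tnfrsf1b from Foxp3-expressing cells; EAE, tamoxifen and day were as above, and no library is shared with the control comparison. Of their 4 CNS Tconv files, 3 carry the name prefix of control files. The labels give 13 icKO libraries, and 1 of them, dLN Tconv replicate 3, stands apart with 7.78 M counts and 6005 genes above 0, against at least 12.9 M and 12340 in the other 12. The calls depend on whether it is left out, a choice made with its depth known, so both fits are given. Without it 1343 of 12857 genes (10.4%) were called, 694 higher (5.4%) and 649 lower (5.05%). Of the 58 genes lower in control mice, 57 were below 0 in the icKO libraries, 38 were called lower and 0 higher, with a median of -1.57. Of the 216 genes higher in control mice, 212 were above 0, 134 were called higher and 0 lower. Over all genes tested in this fit, 48.5% were below 0 and 51.5% above. The icKO CNS Treg libraries also carried the high monocyte and macrophage sums, and the part of that RNA in these counts was not tested. The IL-2 axis genes had icKO interactions of -3.46 for Il2ra (adjusted p = 0.000114), -1.98 for Il2rb (adjusted p = 8.12e-05) and -3.52 for Socs2 (adjusted p = 0.000163) in edgeR. Ahr, Ahnak and Rora had -2.10, -1.85 and -1.91, all called. Nrp1 (-1.07, adjusted p = 0.158) and Ikzf3 (-0.80, adjusted p = 0.167) were not called by edgeR, nor were Fos (0.85, adjusted p = 0.365) and Slc2a1 (0.21, adjusted p = 0.836). With all 13 libraries 17 of 12380 genes (0.137%) were called by edgeR, 12 higher (0.0969%) and 5 lower (0.0404%), and 1169 had an unadjusted p under 0.05. Then 57 of the 58 genes were still below 0 and 206 of 215 tested were above 0, but 0 of the 58 were called lower and 7 of the 215 higher. Il2ra, Il2rb, Socs2, Ahr, Ahnak and Rora had interactions of -1.60, -1.48, -4.10, -1.98, -1.33 and -1.03 in that fit, and none was called (adjusted p of 0.147 to 0.684). The icKO calls thus hold only without this library. The difference between the icKO and control interactions was not tested.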

How the data were processed

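Polyadenylated RNA of CD4 T cells was extracted with a column kit and made into libraries with Smart-Seq v4 and Nextera, which keep no strand, per the labels' protocols. The deposited tables hold RSEM expected counts per gene for 24848 genes, and per the submitters' processing notes the tools were FastQC, Trimmomatic, STAR 2.5.3a and RSEM 1.2.28 with mm10. The TPM and FPKM columns were not used. Because nothing marks strand, antisense and overlapping genes cannot be told apart.

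The expected counts were rounded for edgeR 4.0.16 (R 4.3.3): filterByExpr kept 12473 genes, TMM factors scaled the libraries, and a quasi-likelihood model with 4 group means over 13 libraries gave the interaction and both simple differences. Adjustment was by Benjamini-Hochberg over all genes, with a threshold of 0.05, and SE is the log2 difference over the square root of its F statistic. CPM are scaled by TMM. Simulated data with the same design and known changes served as a test of these steps, in which 2 of the unchanged genes among 12202 were called. Apart from the planted changes, each simulated gene had the same mean in all 4 groups. Alternatives were DESeq2 1.42.0 (size factors in edgeR; Wald test), voom of limma 3.58.1 with library quality weights, 2 other filters, a replicate block, all 8 groups with 25 libraries, a myeloid covariate, leaving out libraries and, added after seeing the data, leaving out genes of other cell types. The icKO library labelled Tconv dLN replicate 3, which is shallow, was left out of the fit with 25 libraries, and the icKO contrast was fitted without it and, added after seeing the data, with it.

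The 24 T cell and 11 other-cell lists, the members and the named genes were chosen with earlier results of these data known. Named were Foxp3, Tnfrsf1b and the 12 largest called rises and falls. Those rises and falls had 10 CPM in a group, 10 counts in every group, an official symbol and no place in an other-cell list. Also named were up to 4 called members per T cell list by smallest p and 5 called genes with under 10 counts in a group. The last were the 3 members of each other-cell list with the highest mean CPM in any group. The symbol condition left out Gm, Rik and LOC names, receptor segments and, beyond the rule as first written, names of 2 letters and a clone number. Gene positions came from GENCODE on GRCm38 and promoters from RefSeq. Python 3.11.15 with pandas 2.3.3 and matplotlib 3.10.9 drew the plots. The depth of 12.4 to 18.5 M counts makes 3 counts equal 0.202 CPM in CNS Treg and 0.210 CPM in CNS Tconv libraries. Such floors cover counting error only.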

Additional observations from a re-analysis of the deposited data

Results flagged for a closer look

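The difference between cell types that the report describes, 216 genes higher and 58 lower, is itself a difference between groups by the interaction test. A sample far from the others was looked for in the 4 CNS Tconv libraries, the single group of 4, over 124 values of named genes and lists. It was found for 15. In 7 of these the other 3 libraries were at 0, so that a single count is enough, and 8 remain, where chance gives about 1 in 20 of the 124. Replicate 4 was the far sample in 11 of the 15, and in 5 of the 8. Its values were low for Trat1 (86.4 CPM, others 114.7 to 118.4), for Nkg7, a granule protein of cytotoxic cells (474 CPM, others 846 to 901), and for the summed inhibitory receptor list (1372 CPM, others 1505 to 1522). They were high for Apod (7.44 CPM, others 0.298 to 0.956), Slc1a3 (1.59 CPM, others at most 0.0734) and Slc1a2 (1.44 CPM), and slightly above 0, with the others at 0, for Ifi205 (0.911 CPM), Jchain (0.531 CPM), Gpr141 (0.228 CPM), Cd300ld (0.0759 CPM) and Ltf (0.0759 CPM). Replicate 3 was the far sample for Camp (0.147 CPM) and S100a8 (0.660 CPM), and replicate 1 for Tnfrsf1a (43.8 CPM, others 52.5 to 54.1) and Cebpb (63.8 CPM, others 34.6 to 39.2). Replicate 4 is one of the libraries whose file name disagrees with its label; whether that bears on these values was not tested.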

How the results depend on the processing

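Under DESeq2 size factors, no filter or a filter of 10 CPM in 3 libraries, counts stayed within 1.5 times, and none of the 216 or 58 genes changed sign under any alternative except the covariate. Counts higher and lower were 501 and 215 by DESeq2, 513 and 236 by limma, and 344 and 151 with 8 groups in 25 libraries. Calls in the Treg difference were 3806 by limma, and in the Tconv difference 1446 by DESeq2, 1541 by limma and 1202 with 8 groups. Without CNS Tconv replicates 3 and 4 they were 668 higher, 288 lower and 2227 in the Tconv difference. The genes called in the full fit and lost there were Spon1, Ifit1bl1, Klrb1b, Rffl and Rpl29. The replicate numbers gave no sign of pairing, though groups of 3 or 4 libraries are too small to exclude it. Of 18 same-numbered pairs, 0 had a correlation of deviations over 0.1, and in 7 a library correlated best with its own number. The replicate block gave 355 higher, 178 lower and 1909 in the Tconv difference. In that fit CNS Tconv replicate 4, the single library with its number, was a block of its own and so carried no weight in these differences. A myeloid score as covariate left 0 higher, 0 lower and 0 in the Treg difference in edgeR, and the interaction had 229 genes with an unadjusted p below 0.05. Group membership held 94.3% of the score's variance, so score and group can hardly be told apart, and the median SE of the 274 genes was 0.97 with the covariate, against 0.43 without it. Under it Spon1 (-0.48), Napsa (-0.95), Lair1 (-1.23), Lyz2 (-1.61) and Apod (-0.0825) changed sign, as did 26 of the 216 and 2 of the 58 genes in all. The cause was not tested.

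Leaving out each of the 13 libraries in turn gave 88 to 440 genes higher, 13 to 198 lower, 1079 to 3161 in the Treg difference and 165 to 2088 in the Tconv difference. The lower count was 198 without CNS Tconv replicate 4 and 143 without CNS Treg replicate 3, 81 without CNS Tconv replicate 1, and 13 to 39 without any one of the other 10. The higher count was 440 without CNS Tconv replicate 4, and between 88 and 116 without CNS Treg replicate 1 or 2, dLN Treg replicate 1 or 3, or dLN Tconv replicate 2 or 3. Calls in the Treg difference were 1079 to 1476 without CNS Treg replicate 1 or 2 or any dLN Treg replicate, and those in the Tconv difference were 2088 without CNS Tconv replicate 4 and 165 to 431 without CNS Tconv replicate 2 or 3, dLN Treg replicate 1 or any dLN Tconv replicate. Depth limits genes with few counts in every group, as 3 counts equal 0.202 to 0.210 CPM in the 4 groups.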

Other observations

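The summed monocyte and macrophage list was 11468 to 20941 CPM in icKO CNS Treg libraries, 1375 to 2157 CPM in icKO dLN Treg libraries and 961 to 1938 CPM in icKO Tconv libraries other than dLN Tconv replicate 3.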
